A study of Mus musculus with 72 samples.

Results

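The 42 genes described here drive or mark cell division and DNA replication. They were chosen by symbol from a table of 55401 genes counted in 72 mouse brain libraries, and all 42 were found and passed the filter on low counts in every fit. They fall into 6 roles, namely the replicative helicase, clamp and origin control (8 genes), nucleotide supply (3), cyclins with their kinase and transcription factors (10), chromosome structure with the Ki-67 antigen (3), mitotic kinases with centromere and checkpoint proteins (11), and spindle motors with midzone and mitotic exit proteins (7). RNA came from the brain of C57Bl/6 pups (C57Bl/6NTac in the study's methods), which the study's methods describe as a right hemisphere and the submitters' design text as cortex. PND1 pups were exposed before birth, through an osmotic minipump in the dam that delivered morphine at 10 mg/kg/day or saline. PND14 pups were exposed after birth only, by injection of morphine at 10 mg/kg or saline 2 times a day from day 1 to day 14. The 3-Tri pups went through both exposures and were also taken at day 14. PND1 holds 7 saline and 4 morphine libraries labelled female (code F) and 7 saline and 6 morphine libraries labelled male (code M), and each of the 8 groups of PND14 and 3-Tri holds 6. Each library is labelled as 1 pup. In PND14 and 3-Tri the sample names open with a number that several pups of a single drug share, whose meaning the labels do not give, and no label gives litters, so p-values measure the spread between these pups.

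A dividing cell copies its DNA in S phase and separates the copies in M phase. The minichromosome maintenance (Mcm) proteins form the helicase that opens the DNA, Pcna is the clamp that holds polymerases on it, and cyclins switch on the kinases that carry the cell from phase to phase. Many genes that act in mitosis are transcribed mainly in cycling cells, so their RNA is widely used as a sign of dividing cells in a tissue. In the newborn rodent brain these are mainly progenitors beside the ventricles, granule cell precursors of the cerebellum and glial precursors.

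Total counts ranged from 20742862 to 27333125 in PND1, from 4407544 to 21404819 in PND14 and from 3113919 to 19938980 in 3-Tri, with 1 library under 5000000 in each of the last 2. The lowest count of any of the 42 genes was 48 in PND1, 4 in PND14 and 2 in 3-Tri. The sex-linked genes went against the gender code in 16 of the 72 libraries, 4 of them in PND1, 0 in PND14 and 12 in 3-Tri, so code F and code M are used here as labels only. Levels are CPM, a library's counts over its TMM-scaled total. Changes are log2 fold changes from edgeR's quasi-likelihood test, with Benjamini-Hochberg adjustment over all genes tested and calls at an adjusted p under 0.05.

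RefSeq promoters (GRCm38.p6) were matched by symbol for 33 of the 42 genes. The 9 without were Aurkb, Ccna2, Ccnd1, Ccnd2, Ccne2, Foxm1, Gmnn, Mcm4 and Tpx2. A gene was counted where any of its promoters held the motif. A CCAAT box (CCAAT, either strand) lay within the 100 bases before the start in 24 of the 33, compared with 21.6% of all genes with a promoter. The cell cycle genes homology region (CHR, TTTGAA or TTCGAA, either strand), an element known from genes of late cell cycle phases, lay there in 9 of the 33, compared with 7.18% of all genes with a promoter. An E2F-type site (TTCCCGC or TTGGCGC, either strand), known from replication genes, lay there in 3 of the 33, compared with 3.06% of all genes with a promoter. A wider window of 300 bases took in 250 before the start and 50 from it on. In it the CCAAT box lay in 27 of the 33 (41.1% of all genes), the CHR in 19 (21.7%) and the E2F-type site in 8 (7.79%). An E2F-type TTGGCGC that follows an A overlaps a CCAAT box on the other strand, which does not occur in the stretches below. They are shown to set the promoters of 6 genes that fell between day 1 and day 14 beside that of Ccne1, which rose. Each runs from 100 bases before the RefSeq start to the base before the start or before an annotated exon, whichever comes first, and capitals mark the motif matches.
Ccnb2, chr9:70421555-70421654, minus strand: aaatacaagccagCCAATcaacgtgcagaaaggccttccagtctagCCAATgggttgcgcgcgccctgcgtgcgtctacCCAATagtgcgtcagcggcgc
Cdk1, chr10:69352939-69353012, minus strand: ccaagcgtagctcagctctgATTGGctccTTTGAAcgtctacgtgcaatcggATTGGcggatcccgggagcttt
Top2a, chr11:99024190-99024289, minus strand: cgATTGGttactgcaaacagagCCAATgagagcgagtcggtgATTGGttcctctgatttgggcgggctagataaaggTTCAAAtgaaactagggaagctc
Hmgb2, chr8:57511743-57511842, plus strand: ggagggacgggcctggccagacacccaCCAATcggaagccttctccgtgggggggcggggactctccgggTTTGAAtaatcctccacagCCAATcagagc
Kif23, chr9:61946800-61946899, minus strand: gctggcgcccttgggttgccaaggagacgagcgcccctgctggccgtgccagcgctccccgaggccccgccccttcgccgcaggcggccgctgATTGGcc
Mcm6, chr1:128359706-128359805, minus strand: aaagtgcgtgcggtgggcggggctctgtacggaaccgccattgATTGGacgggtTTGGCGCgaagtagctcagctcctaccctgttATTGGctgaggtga
Ccne1, chr7:38107535-38107590, minus strand: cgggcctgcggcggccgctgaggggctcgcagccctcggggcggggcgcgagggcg
Ccnb2 and Top2a hold 3 CCAAT boxes each in the stretch shown, Cdk1, Hmgb2 and Mcm6 hold 2 each, and Kif23 holds 1. A CHR stands in the stretches of Cdk1, Top2a and Hmgb2, and the E2F-type site in that of Mcm6. Past the stretches shown, with the start counted as base 1, a CHR begins at base 5 in Ccnb2 and at base 3 in Kif23. In the whole window of 300 bases 6 genes held none of the 3 motifs, Ccne1 and E2f1, which rose, and Birc5, Melk, Nusap1 and Tyms, which fell. Only the strings given were searched, so the promoters of these 6 genes may hold other forms of the sites. A match describes letters only and was not tested as a binding site. The median log2 fold change between saline PND14 and PND1 libraries was -1.59 over the 24 genes with a CCAAT box in the 100 bases and -1.21 over the 9 without. By the same 100 bases it was -1.65 over the 9 genes with a CHR and -1.39 over the 24 without, and -1.24 over the 3 with an E2F-type site and -1.56 over the 30 without. The groups without a motif include genes that hold it elsewhere in the 300 bases, such as Ccnb2 and Kif23 for the CHR. These medians leave out the 9 genes without a matched promoter. Among them are Ccnd1, which rose, and Ccnd2, Ccne2 and Gmnn, whose saline libraries overlapped between the ages.

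The first comparison asks how the proliferation genes differ between day 1 and day 14 in pups given saline. In saline libraries 39 of the 42 genes were lower at PND14 and 3 were higher, and all 42 passed the test. Over all 22010 genes tested 84.9% passed, 43.2% lower and 41.7% higher, so passing was common and the direction and size of the change describe these genes better than the call. Their median log2 fold change was -1.40, compared with -0.02 over all genes. The mean log2 CPM of the 42 genes ran from 3.66 to 4.19 with a median of 3.86 in the 14 saline PND1 libraries. In the 12 saline PND14 libraries it ran from 2.56 to 2.88 with a median of 2.65, so the ages did not overlap. For 36 of the 42 genes every saline PND14 library lay below every saline PND1 library, which held for 23.9% of all genes. For Ccnd1, Ccne1 and E2f1 every PND14 library lay above, which held for 24.8% of all genes, and Ccnd2, Ccne2 and Gmnn overlapped. In whole tissue, fewer dividing cells, less RNA per cell and a larger share of RNA from other cells cannot be told apart. Markers of hindbrain and cerebellum also differed between the ages, as given below, and their part in the change was not tested. Age also cannot be told apart from the route of exposure. The labels name no preparation set, and the study's methods describe the same library construction and sequencing settings for all groups. Any difference in handling between the windows would go with age too.

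**Figure D1:**
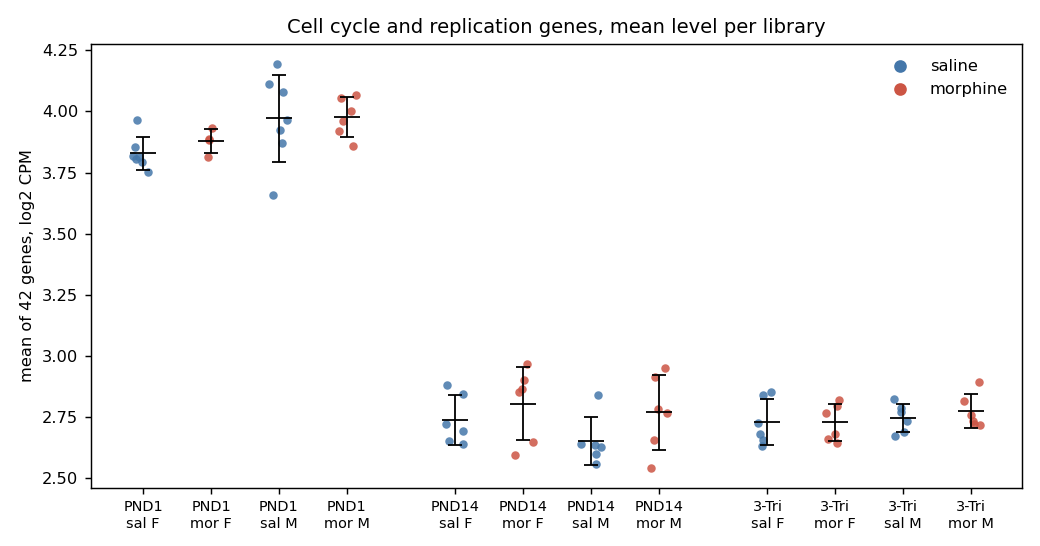
Each point is the mean log2 CPM of the 42 genes in 1 library, by window, drug (sal, saline; mor, morphine) and gender code (F, M), and the bars show the group mean with its SD. The PND1 libraries lie from 3.66 to 4.19 and the PND14 and 3-Tri libraries from 2.54 to 2.97, with no overlap.

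All 8 helicase, clamp and origin genes fell, by a median log2 fold change of -1.08. Mcm7 (ENSMUSG00000029730.16, mm10, chromosome 5, 138164583 to 138172422, minus strand), a helicase subunit, ran from 46.9 to 62.9 CPM with a median of 54.1 in saline PND1. In saline PND14 it ran from 13.2 to 17.3 CPM with a median of 15.4, and every PND14 library was below every PND1 library. Mcm7 was 3.58-fold lower (log2 fold change -1.84, SE 0.05, adjusted p = 4.64e-44). The subunits of this single complex fell by unequal amounts. Mcm5 was 2.62-fold lower, Mcm6 2.36-fold, Mcm2 2.18-fold, Mcm3 2.06-fold and Mcm4 1.62-fold. Pcna, the clamp, which also serves DNA repair, was 1.38-fold lower. Gmnn, which blocks a second licensing of origins, moved least, from a median of 2.99 CPM (2.03 to 3.79) to 2.29 CPM (1.43 to 3.56). The ranges of Gmnn overlapped, and its log2 fold change was -0.30 (SE 0.11, adjusted p = 0.0113).

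The 3 nucleotide supply genes fell together. Rrm2, the subunit of ribonucleotide reductase that is made in S phase, ran from 17.7 to 24.8 CPM (median 20.4) in saline PND1 and from 5.37 to 9.57 CPM (median 6.96) in saline PND14. Rrm1, the partner subunit, ran from 37.9 to 53.5 CPM (median 44.0) and then from 20.8 to 24.8 CPM (median 22.3). The groups overlapped for neither subunit. Rrm2 was 2.95-fold lower (log2 fold change -1.56, SE 0.07) and Rrm1 1.94-fold lower (log2 fold change -0.96, SE 0.04). Tyms, which makes thymidylate, was 2.31-fold lower.

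The cyclin group was divided. Ccnb1 and Cdk1, which act together in mitosis, fell most of all 42 genes. Ccnb1, cyclin B1 (chromosome 13, 100778650 to 100786570, minus strand), ran from 10.2 to 17.7 CPM (median 13.5) in saline PND1 and from 2.54 to 4.72 CPM (median 3.24) in saline PND14. It was 4.1-fold lower (log2 fold change -2.04, SE 0.09, adjusted p = 2.19e-32). Cdk1, the kinase that cyclin B1 activates (chromosome 10, 69335146 to 69352938, minus strand), went from a median of 12.5 CPM (9.27 to 16.7) to 2.95 CPM (2.10 to 4.49) and was 4.03-fold lower. Both genes thus had no PND14 library within the PND1 range. Ccnb2 was 2.97-fold lower, Foxm1, a transcription factor of mitotic genes, 2.64-fold and Ccna2, cyclin A2, 2.46-fold.

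The cyclins of the first gap phase and of S phase entry followed another pattern. Ccnd2, cyclin D2, ran from 99.7 to 137 CPM (median 118) in saline PND1 and from 95.6 to 124 CPM (median 107) in saline PND14, with ranges that overlapped (log2 fold change -0.13, SE 0.05, adjusted p = 0.0164). Ccne2, cyclin E2, was 1.18-fold lower (log2 fold change -0.24, SE 0.05). Ccne1, cyclin E1, rose instead. Its 14 saline PND1 libraries ran from 5.03 to 7.28 CPM (median 5.85) and its 12 saline PND14 libraries from 11.6 to 16.2 CPM (median 13.5). Ccne1 was 2.30-fold higher (log2 fold change 1.2, SE 0.06, adjusted p = 2.03e-31), so the 2 cyclin E genes moved in opposite directions. Ccnd1, cyclin D1, rose from a median of 26.3 CPM (22.8 to 31.4) to 43.7 CPM (37.3 to 47.7), with a log2 fold change of 0.72 (SE 0.06, adjusted p = 8.39e-20). E2f1, a transcription factor of S phase genes, rose from a median of 9.95 CPM (8.41 to 12.99) to 16.2 CPM (13.6 to 19.0), with a log2 fold change of 0.66 (SE 0.07, adjusted p = 2.59e-13). No saline library of one age lay within the range of the other for these 3 genes.

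The 3 genes of chromosome structure fell by similar amounts. Top2a, the topoisomerase that untangles chromosomes before they separate, ran from 36.6 to 64.7 CPM (median 43.7) in saline PND1 and from 9.71 to 16.5 CPM in saline PND14. Mki67, which encodes the Ki-67 antigen, ran from 34.0 to 62.4 CPM (median 44.7) and then from 10.1 to 21.1 CPM (median 13.8). In both genes the highest PND14 library stayed below the lowest PND1 library. Top2a was 3.85-fold lower (log2 fold change -1.94, SE 0.09), Hmgb2, a chromatin protein, 3.79-fold (-1.92, SE 0.07) and Mki67 3.15-fold (-1.66, SE 0.09).

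All 11 mitotic kinase, centromere and checkpoint genes fell, with log2 fold changes from -1.82 to -1.17. Aurkb, the kinase of the chromosomal passenger complex, had the largest fall of the group, from 4.78 to 8.63 CPM (median 6.41) in saline PND1 to 1.23 to 3.28 CPM (median 1.65) in saline PND14. Aurka, the kinase of the spindle poles, had the smallest, from 6.00 to 8.86 CPM (median 6.75) to 2.36 to 4.58 CPM (median 3.28). Neither gene had overlapping groups. Aurkb was 3.52-fold lower (log2 fold change -1.82, SE 0.12) and Aurka 2.25-fold lower (-1.17, SE 0.08). Birc5 and Cdca8, which sit in one complex with Aurkb, were 3.12-fold and 2.37-fold lower.

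All 7 spindle, midzone and mitotic exit genes fell, with log2 fold changes from -1.87 to -1.06. Kif23, a motor of the spindle midzone, went from 7.81 to 13.3 CPM (median 10.5) to 2.46 to 3.67 CPM (median 2.81), which is 3.66-fold lower (log2 fold change -1.87, SE 0.08). Nusap1, which bundles spindle microtubules, went from 12.8 to 20.8 CPM (median 13.6) to 6.03 to 9.23 CPM (median 7.33), which is 2.08-fold lower (-1.06, SE 0.07). The groups did not overlap in either. The remaining 5, Ube2c, Cdc20, Kif11, Prc1 and Tpx2, lay between these with folds from 2.61 to 3.15 lower.

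**Figure D2:**
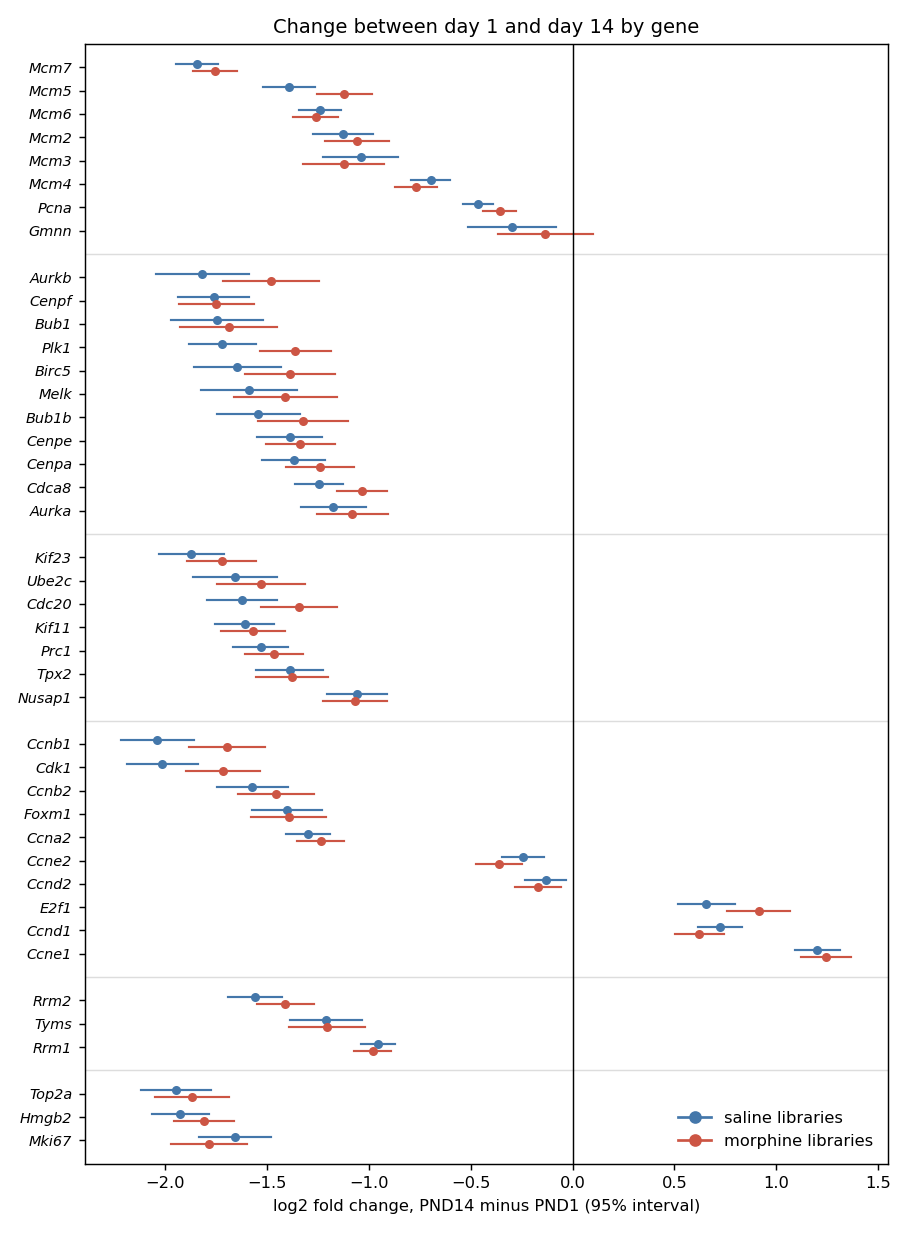
Points are log2 fold changes of PND14 minus PND1 for the 42 genes in saline and in morphine libraries, with lines for the 95% interval and gaps between the roles. Ccne1, Ccnd1 and E2f1 lie right of 0, from 0.66 to 1.2 in saline, and the other 39 saline points lie left of 0.

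Per length the order of the genes changed with age. In saline PND1 Pcna stood first at 22.5 CPM per kb of exon, followed by Hmgb2 at 13.1, Ccnd2 at 12.7, Mcm7 at 12.4 and Rrm2 at 7.54. Ccnd1 was number 7, E2f1 number 20 and Ccne1 number 31 of the 42. In saline PND14 the level of Pcna was 16.3 CPM per kb, followed by Ccnd2 at 11.6, Ccnd1 at 9.24, Ccne1 at 5.17 and E2f1 at 5.11, with Hmgb2 at 3.46 and Mcm7 at 3.45 behind them. Ranks 2 to 4 in the younger libraries, and Ccne1 against E2f1 in the older ones, differ by less than the spread between libraries.

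The change with age was also measured in each gender code. In code F 37 of the 42 genes were lower and 3 higher, where 78.9% of all genes passed, and in code M 39 were lower and 3 higher, where 78.7% passed. Ccnd2 (log2 fold change -0.04, adjusted p = 0.652) and Gmnn (-0.05, adjusted p = 0.768) were the 2 that missed the threshold in code F. The fall was on median 0.24 larger in code M on the log2 scale, but none of the 42 passed the test of that difference by edgeR or by DESeq2, where 0.00454% of all genes did by edgeR. The lowest adjusted p was 0.548, and 15 genes were lower at an unadjusted p under 0.05, compared with 3.48% of all genes.

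The 3-Tri libraries, taken at the same age as PND14, were lower than PND1 in the same genes. Against the same PND1 saline libraries, 37 genes were lower and 3 higher in saline 3-Tri, where 85.1% of all genes passed. Ccnd2 (adjusted p = 0.0724) and Gmnn (adjusted p = 0.0757) missed the threshold there and passed it in DESeq2. Cdk1 ran from 1.86 to 4.30 CPM (median 3.22) in saline 3-Tri and Ccne1 from 11.9 to 15.5 CPM (median 13.4), both outside their PND1 ranges. Between saline 3-Tri and saline PND14 none of the 42 genes passed, where 0% of all genes did. The log2 fold changes there ran from -0.11 to 0.23, so all 42 lay within 0.25, with 1 gene higher at an unadjusted p under 0.05, compared with 1.75% of all genes, and 0 called by DESeq2.

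The morphine libraries share no sample with the saline libraries and give the same comparison once more. Between morphine PND1 (10 libraries) and PND14 (12) 38 genes were lower and 3 higher, where 83.5% of all genes passed, and the median log2 fold change was -1.34. Cdk1 ran from 10.8 to 14.4 CPM (median 12.3) in morphine PND1 and from 1.60 to 4.90 CPM (median 3.60) in morphine PND14. Ccne1 ran from 4.79 to 7.23 CPM (median 5.90) and then from 11.2 to 17.3 CPM (median 13.8). In both genes the ages were apart, and the log2 fold changes were -1.71 (SE 0.09) and 1.24 (SE 0.06). Ccnd1, Ccne1 and E2f1 were again the genes that rose, and Gmnn missed the threshold (-0.13, adjusted p = 0.293). Morphine 3-Tri against morphine PND1 gave 38 lower and 3 higher, where 83.9% of all genes passed. Between morphine 3-Tri and morphine PND14 no gene passed, where 0.8% of all genes did, with 6 lower at an unadjusted p under 0.05, compared with 7.26% of all genes, and 0 called by DESeq2. The closest was Cdca8 (adjusted p = 0.0582).

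**Figure D3:**
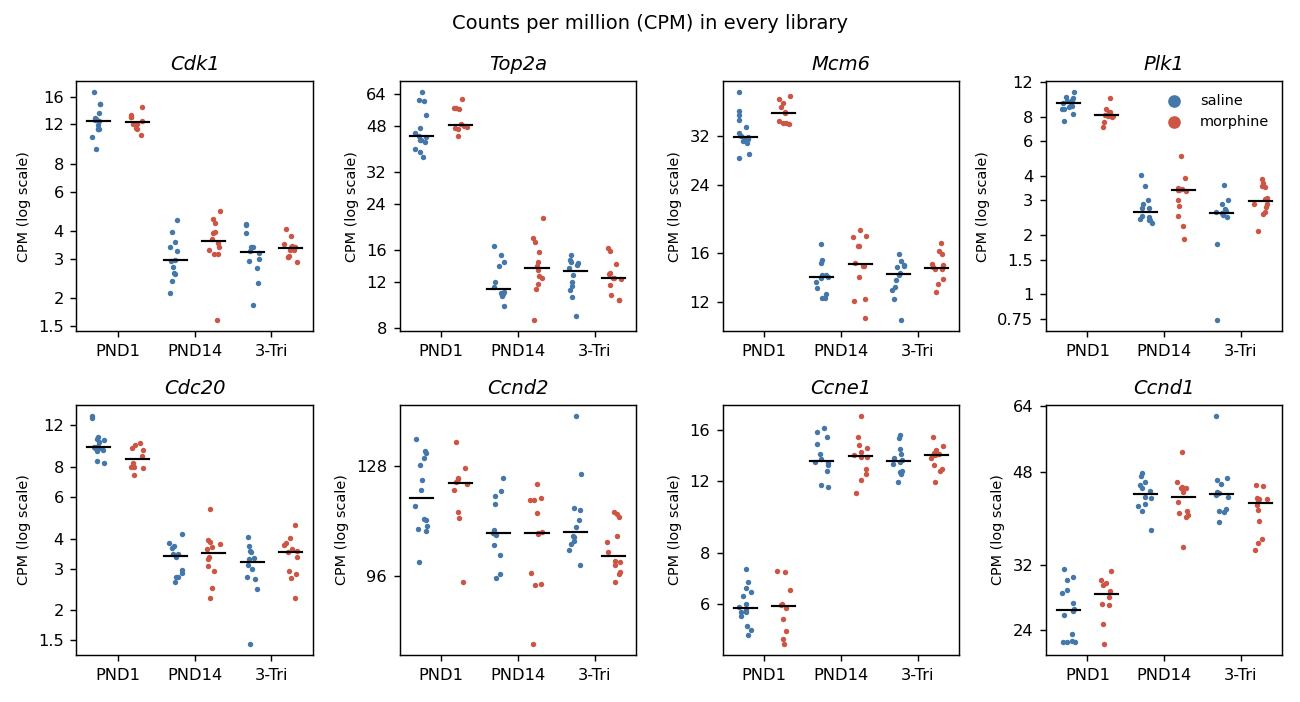
Each point is 1 library's CPM on a log axis for 8 of the genes, by window and drug, with a line at each median. Cdk1, Top2a, Mcm6, Plk1 and Cdc20 drop after PND1, Ccnd2 overlaps between windows, and Ccne1 and Ccnd1 rise, as in Ccne1 from a saline median of 5.85 to 13.5 CPM.

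Beyond the 42 genes, 146 further cell cycle genes were listed, of which 145 were tested. In saline PND14 against PND1 126 of the 145 were lower, 15 were higher and 4 did not pass, with a median log2 fold change of -0.94. Not all of the 15 are named below. All 21 genes of origin licensing and firing were lower, among them Dbf4 (log2 fold change -1.96), which activates the origin kinase. Of 29 genes of the replication fork 26 were lower, among them the primase Prim1 (-1.95) and the ligase Lig1 (-1.80), and Rfc1, Rfc5 and Rpa1 were higher by 0.12 to 0.29. Of 12 kinases and other cyclins 10 were lower, among them Cdk4 (-1.09), the partner of the D cyclins, while Wee1, which restrains Cdk1, was higher (1.22).

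The list of CDK inhibitors and pocket proteins was the most divided, with 10 of 14 lower and 4 higher. Cdkn1c, an inhibitor known from cells that leave the cycle, had its largest fall (-2.17), and Ccng1 its largest rise (1.04), beside Cdkn2b (0.84), Btg2 (0.60) and Cdkn2d (0.30). Of 15 E2F and MYB genes and partners 11 were lower, among them Mycn (-1.33) and Myc (-1.38), and E2f3 (0.50) and Lin54 (0.17) were higher. Of 23 kinetochore genes 20 were lower, among them Spc25 (-1.92), while Pttg1 (1.03) and Zwint (0.69) were higher. Of 19 spindle and cytokinesis genes 17 were lower, with Kif15 and Kifc1 both at -1.87, and Cit, a kinase of cytokinesis that neurons also express, rose by 1.77 from a mean of 52.4 to 179 CPM. Of 12 cohesin and condensin genes 11 were lower, among them Ncapd2 (-1.38), and Stag2 was higher (0.14).

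Markers of several cell types and regions moved with age beside these genes. Of 10 neural progenitor markers 7 were lower and 1 higher at saline PND14, and their mean log2 CPM ran from 4.67 to 5.04 in saline PND1 and from 3.60 to 4.19 in saline PND14. Of 7 markers of neuroblasts 6 were lower, with mean log2 CPM from 5.53 to 5.93 and from 3.99 to 4.69. All 6 markers of the oligodendrocyte lineage were higher (4.87 to 5.24 against 6.43 to 6.55), as were all 6 of microglia (3.70 to 3.96 against 5.35 to 5.56) and all 6 of neurons (7.05 to 7.33 against 9.34 to 9.52). Within the oligodendrocyte list the log2 fold changes ran from 0.39 in Pdgfra and 0.68 in Cspg4 to 3.33 in Gpr17. Of 5 endothelial markers 4 were higher and 1 lower, all 5 erythroid markers tested were lower, and the 6 cortex markers split into 3 higher and 3 lower.

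The libraries also differed in regions other than the cortex. Of 12 markers of the cerebellum and its granule cell precursors 8 were lower and 3 higher at saline PND14, with a mean log2 CPM from 2.201 to 3.21 in saline PND1 and from 0.90 to 2.43 in saline PND14. All 15 Hox markers of hindbrain and spinal cord were lower. Their mean log2 CPM ran from -3.14 to 1.56 in saline PND1, a wide spread between libraries of one group, and from -3.17 to -2.43 in saline PND14. Hoxa4, Hoxb6, Hoxb7 and Hoxd4 had 0 counts in every saline PND14 library. The part of these cell types and regions in the change of the 42 genes was not tested.

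The next comparison asks whether morphine before birth changed the proliferation genes at day 1. Over both codes 4 of the 42 genes passed, with Ccne2 and Mcm6 higher and Plk1 and Cdc20 lower after morphine, compared with 16.8% of all genes tested (7.39% higher, 9.43% lower). The share of the 42 genes that passed was thus below that of all genes. The median log2 fold change of the 42 genes was 0.03, and none exceeded 0.25 in either direction. Cdk1, Top2a and Mki67 were not called.

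Mcm6 measured 34.5, 34.9, 34.3 and 34.6 CPM in the 4 morphine libraries of code F and from 28.1 to 37.1 CPM (median 31.4) in the 7 saline libraries. In code M it ran from 36.6 to 40.6 CPM (median 38.5) after morphine and from 31.0 to 41.4 CPM (median 33.8) after saline. The groups overlapped in both codes, and the log2 fold change over both was 0.15 (SE 0.05, adjusted p = 0.0303). Ccne2 measured 11.2, 10.6, 11.8 and 11.1 CPM after morphine in code F, where saline ran from 9.42 to 11.9 CPM. In code M it ran from 12.3 to 15.6 CPM after morphine and from 9.23 to 12.4 CPM after saline, so the groups barely overlapped. Its log2 fold change over both codes was 0.20 (SE 0.05, adjusted p = 0.0113).

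Plk1, a kinase of mitotic entry (chromosome 7, 122159439 to 122169873, plus strand), measured 9.93, 8.46, 7.51 and 7.08 CPM after morphine in code F, where saline ran from 8.20 to 10.1 CPM. In code M it ran from 8.00 to 8.72 CPM after morphine and from 7.60 to 10.6 CPM after saline. The morphine libraries thus lay mostly in the lower part of the saline range or under it, and the log2 fold change was -0.16 (SE 0.06, adjusted p = 0.049). Cdc20, which activates the complex that ends mitosis, measured 7.99, 8.33, 9.41 and 9.94 CPM after morphine in code F, where saline ran from 9.39 to 10.4 CPM. In code M it ran from 7.38 to 10.1 CPM after morphine and from 8.32 to 13.1 CPM after saline. Its groups overlapped in both codes, with a log2 fold change of -0.21 (SE 0.07, adjusted p = 0.0493).

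These 4 calls were narrow. Leaving out 1 library at a time left between 1 and 5 called, with 1 left without morphine F replicate 2, morphine M replicate 8 or 9, saline F replicate 3 or saline M replicate 14. With 2 left stood the fits without morphine F replicate 1, 3 or 4, morphine M replicate 7 or 10, saline F replicate 1, 2, 4 or 7, or saline M replicate 10, 11 or 13. Across all genes the log2 fold change of morphine against saline at PND1 correlated with GC content (Pearson's r = -0.43, a description across genes, which are not independent), and with a correction of each library for GC content and length 0 of the 42 passed. For the alternative fits, here and below, the share of all genes that passed is not given. Whether lost or gained calls were particular to the 42 genes is thus not known. The hindbrain markers ran from -2.76 to 2.49 in mean log2 CPM after morphine (median -0.22) and from -3.14 to 1.56 after saline (median -1.50), with 0 of 15 called. Of the 6 neuron markers 3 were higher (Syn1, Snap25 and Syt1) and 1 lower (Slc17a7), and their mean log2 CPM ran from 7.196 to 7.38 after morphine and from 7.05 to 7.33 after saline. In 5 other lists 1 marker each was lower, namely Barhl2 of 11 cerebellar markers tested, Sp9 (log2 fold change -0.23) of 7 of neuroblasts, Cldn5 (-0.31) of 5 endothelial, Sox10 (-0.19) of 6 of the oligodendrocyte lineage and Hbb-bt (-0.43) of 5 erythroid. The mean log2 CPM after morphine and after saline overlapped in each, at 2.45 to 2.93 and 2.201 to 3.21 for the cerebellum, 5.23 to 5.82 and 5.53 to 5.93 for neuroblasts, 4.52 to 4.87 and 4.55 to 4.899 for endothelial cells, 4.91 to 5.24 and 4.87 to 5.24 for the oligodendrocyte lineage, and 2.696 to 3.71 and 3.16 to 3.72 for erythroid cells. None of the 10 progenitor, 6 microglia or 6 cortex markers passed. Their part in the result was not tested beyond the fits with a marker level as a covariate, where 1 of the 42 passed with the hindbrain level.

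Within code M 2 genes passed, Ccne2 (log2 fold change 0.27, adjusted p = 0.0115) and Cdc20 (-0.28, adjusted p = 0.0492), where 14.4% of all genes did. Within code F none passed by edgeR or DESeq2, where 0% of all genes did, and 1 was higher at an unadjusted p under 0.05, compared with 5.11% of all genes, namely Mcm3 (0.33, adjusted p = 0.268). None of the 42 passed the test of the difference between the codes by either tool, and 1 was lower at an unadjusted p under 0.05, compared with 2.92% of all genes. Leaving out 1 library at a time left between 1 and 3 called in code M, with 1 left without morphine F replicate 2 or 3, morphine M replicate 7, 8, 9 or 10, saline F replicate 1, 2, 3, 4, 6 or 7, or saline M replicate 10 or 11.

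Of the 145 further cell cycle genes tested 8 were higher and 6 lower after morphine at PND1, compared with 16.8% of all genes (7.39% higher and 9.43% lower), a smaller share. The replication genes Orc1 (0.19), Orc4 (0.11) and Tipin (0.16) were among the higher, with E2f8 (0.28), Rb1 (0.14), Zwint (0.10), Smc1a (0.12) and Stag1 (0.11). The lower were Pold2 (-0.23), Ccnd3 (-0.14), Cdkn2d (-0.27), Ccng2 (-0.20), Nek2 (-0.20) and Kifc1 (-0.27).

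**Figure D4:**
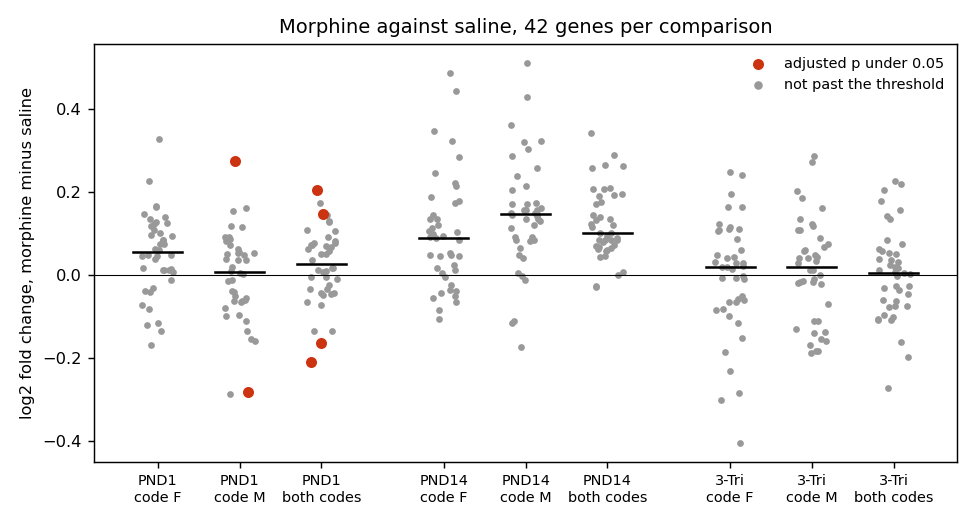
Each point is the log2 fold change of morphine minus saline for 1 of the 42 genes, by window and by gender code or both, with a line at the median. Red points passed the test, 2 in PND1 code M and 4 in PND1 over both codes, and no point of PND14 or 3-Tri did.

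After injections from day 1 to day 14 none of the 42 genes passed, by edgeR or by DESeq2, where 1.69% of all genes did by edgeR. The estimates leaned one way. Of the 42, 40 were higher after morphine, with a median log2 fold change of 0.10, and 8 were higher at an unadjusted p under 0.05, compared with 7.29% of all genes. The genes are correlated, so the count of signs is a description. By the shared number in the sample names, their mean log2 CPM ran from 2.54 to 2.95 in morphine pups of 4422. It ran from 2.77 to 2.97 in morphine pups of 4423, from 2.64 to 2.88 in saline pups of 4424 and from 2.56 to 2.72 in saline pups of 4425. Every number goes with a single drug, so the lean cannot be told apart from a difference between these groups of pups. The smallest p belonged to Mcm5, Cdca8 and Hmgb2. Mcm5 ran from 7.26 to 9.49 CPM (median 8.84) after morphine and from 6.29 to 8.47 CPM (median 6.78) after saline in code F. In code M it ran from 5.76 to 9.58 CPM (median 8.00) and from 6.64 to 8.16 CPM (median 7.45). The groups overlapped in both codes, and its log2 fold change over both was 0.21 (SE 0.08, adjusted p = 0.161). Cdca8 had 0.21 (adjusted p = 0.163) and Hmgb2 0.19 (adjusted p = 0.202).

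In code M the smallest p belonged to Hmgb2, which went from 6.88 to 11.03 CPM (median 9.81) after saline to 10.8 to 13.9 CPM (median 12.1) after morphine, with an overlap of the ends of both ranges (log2 fold change 0.36, adjusted p = 0.174). Pcna (0.17, adjusted p = 0.261) and Mcm6 (0.26, adjusted p = 0.301) followed by p, while the largest estimate in code M was that of Aurkb (0.51, adjusted p = 0.512). In code M 9 genes and in code F 3 were higher at an unadjusted p under 0.05, compared with 4.26% and 4.94% of all genes. None passed adjustment in either code by either tool, where 0.28% and 0% of all genes did by edgeR. None passed for the difference between codes by either tool, with 3 higher at an unadjusted p under 0.05, compared with 1.61% of all genes. Of the 145 further cell cycle genes tested 3 were higher over both codes, compared with 1.69% of all genes called, namely the CDK inhibitor Cdkn1a (0.24, adjusted p = 0.033), Myc (0.25, adjusted p = 0.0335) and the spindle motor Kifc1 (0.38, adjusted p = 0.0417). The cerebellar markers had a median log2 fold change of 0.29 with 0 of 11 called, and a mean log2 CPM from 0.85 to 3.28 after morphine and from 0.90 to 2.43 after saline. Their part in the lean of the 42 genes was not tested.

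With both exposures (3-Tri) none of the 42 genes passed by edgeR or DESeq2 in either code or over both. By edgeR 0% of all genes passed in each of these comparisons. Over both codes 3 were lower at an unadjusted p under 0.05, Kif23 (log2 fold change -0.27, SE 0.12), Cenpe (-0.20, SE 0.09) and Ccnd2 (-0.11, SE 0.05), all with an adjusted p of 0.97, compared with 2.92% of all genes. In code F 3 were lower at that level, compared with 1.26% of all genes, in code M 0, and for the difference between codes 0. Kif23 ran from 2.14 to 2.97 CPM (median 2.37) after morphine and from 1.84 to 4.40 CPM (median 3.39) after saline in code F. In code M it ran from 2.51 to 3.40 CPM (median 2.98) and from 1.49 to 4.21 CPM (median 3.26). The morphine libraries lay within the saline range in both. None of the further cell cycle genes passed either. Since 12 of the 24 libraries of this window had sex-linked genes that went against their code, values by code describe the labels.

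The test of the difference itself asks whether the effect of morphine depended on the window. Plk1 differed between PND14 and PND1 by 0.36 (SE 0.13, adjusted p = 0.0444) and Mcm5 by 0.27 (SE 0.10, adjusted p = 0.0481), where 13.3% of all genes passed. Between 3-Tri and PND1 Plk1 differed by 0.37 (SE 0.12, adjusted p = 0.0478) and Cdc20 by 0.39 (SE 0.13, adjusted p = 0.0498), where 8.43% passed. The morphine effects behind these were -0.16, 0.19 and 0.20 for Plk1 in PND1, PND14 and 3-Tri, -0.06, 0.21 and -0.03 for Mcm5, and -0.21, 0.07 and 0.18 for Cdc20. With the ID number as a random effect in limma, which estimates the correlation within it, none passed for either difference, with adjusted p = 0.0906 for Plk1 and 0.1 for Mcm5 in the former and 0.0945 for Plk1 and 0.0888 for Cdc20 in the latter. Both differences use the same PND1 libraries. Without the pups of ID number 4423 or 4425 no gene passed for PND14 against PND1 and without 4424 4 did, and without 4429, 4433 or 4436 none passed for 3-Tri against PND1. With the correction for GC content and length 0 passed in both. Between 3-Tri and PND14 none passed by edgeR or DESeq2, where 0.182% of all genes did, with 6 lower at an unadjusted p under 0.05, compared with 4.95% of all genes, and a lowest adjusted p of 0.265.

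The last comparison sets the gender codes side by side within a window. At PND1 5 of the 42 genes were lower in code F than in code M and none was higher, compared with 4.73% of all genes tested (2.5% lower). The estimates of 40 of the 42 were below 0, with a median log2 fold change of -0.14. Ccna2 ran from 19.4 to 23.7 CPM (median 21.3) in the 11 code F libraries and from 20.03 to 27.8 CPM (median 25.4) in the 13 code M libraries. Mcm4 ran from 14.0 to 20.1 CPM (median 17.0) and from 16.8 to 21.1 CPM (median 19.4). Both genes had overlapping ranges with a higher median in code M. Ccna2 differed by -0.20 (SE 0.05, adjusted p = 0.0204) and Mcm4 by -0.19 (adjusted p = 0.0271).

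Ccne2 (-0.19, adjusted p = 0.0397), the spindle motor Kif11 (-0.28, adjusted p = 0.0462) and Nusap1 (-0.25, adjusted p = 0.0496) were the others, all with overlapping ranges. Of Kif11 code F ran from 16.2 to 21.5 CPM (median 18.7) and code M from 14.9 to 28.8 CPM (median 21.995). Of the 145 further cell cycle genes tested 11 were lower in code F, compared with 2.5% of all genes, among them Mad2l1, a checkpoint protein, Smc4 and Ncapg, parts of condensin, and Orc4, and 0 were higher. Beside these, the hindbrain markers had a median of -1.92 in mean log2 CPM in code F (-3.14 to 1.56) and of -0.36 in code M (-3.03 to 2.49), with 0 of 15 called. In the other lists Pdgfra, a precursor marker in the list of the oligodendrocyte lineage, was lower in code F (-0.16, adjusted p = 0.0214, 1 of 6 called) and Cux2, a cortex marker, was higher (0.16, adjusted p = 0.0134, 1 of 6 called). The mean log2 CPM of code F and code M overlapped in both lists, at 4.87 to 5.24 and 4.94 to 5.24 for the oligodendrocyte lineage and 6.31 to 6.83 and 6.21 to 6.75 for the cortex, and their part in the result was not tested. With the hindbrain level as a covariate 0 of the 42 genes passed, with the cerebellar level 1, and with the correction for GC content and length 0, and the log2 fold change correlated with GC content across genes (r = 0.39).

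At PND1 the sex-linked genes of morphine F replicate 4 and morphine M replicate 5 went against their code. Those of saline F replicate 5 and saline M replicate 10 did so too, and values by code describe the labels. Single libraries also moved the count between codes. It was 0 without morphine F replicate 4, 14 without saline M replicate 9, 12 without morphine M replicate 5 and 8 without saline F replicate 7. It was 1 without morphine F replicate 1 or 3 or morphine M replicate 9, 3 without morphine M replicate 7, and 2 without morphine F replicate 2, morphine M replicate 6, 8 or 10, saline F replicate 1, 2, 3, 4 or 5, or saline M replicate 8, 11, 13 or 14. At PND14 none of the 42 genes passed by edgeR or DESeq2, where 0.107% of all genes did by edgeR, with 2 higher at an unadjusted p under 0.05, compared with 2.78% of all genes. In 3-Tri none passed by either tool, where 0% of all genes did by edgeR. There 1 was higher and 1 lower at an unadjusted p under 0.05, compared with 1.06% and 1.24% of all genes.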

How the data were processed

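The 72 libraries were mRNA libraries (NEBNext Ultra II), each labelled as 1 pup. The deposited table holds raw counts per gene, which the authors made, per the labels and the study's methods, with Trim Galore 0.6.6, HISAT2 2.2.1, SAMtools and featureCounts 2.0.1 on mm10. The study's methods also describe removal of duplicated fragments with Picard MarkDuplicates before counting. Whether counting used strand is not given in the sources used here. The authors' tables of their own comparisons hold fold changes and p-values and were used only to pair gene identifiers with symbols. All 72 columns matched a label and 0 did not.

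From the counts, edgeR 4.0.16 (R 4.3.3, limma 3.58.1) fitted group means by window, drug and code with TMM scaling, after filterByExpr with a minimum count of 10 and a minimum total of 15. One fit over 72 libraries (22010 genes) gave comparisons between windows, and fits of 24 libraries gave those within PND1 (21714 genes), PND14 (19636) and 3-Tri (19730). The log2 CPM used a prior count of 2, and an SE is the log2 fold change divided by the root of F. DESeq2 1.42.0 and other scalings, filters, libraries, blocks and a lowess correction for GC content and length (span 0.3) were alternatives. Depth per window is given with the results, and at a few counts per gene in the shallowest libraries single values are imprecise. The scripts were tested on simulated data. No pair of libraries in a group agreed within sampling noise, with a lowest chi-square per gene of 1.64 (PND14 saline, code M). This check cannot show that libraries come from separate pups, and each counted as 1 sample by its label. Positions and exon lengths came from GENCODE M21 (mm10), while the study's methods name a later GENCODE version for the counts. All 42 gene identifiers were found in M21 with their version.

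The members and the lists of other genes were chosen with earlier results of these data known. Values were given for the gene with the largest rise, largest fall and smallest change of each role in the saline change with age, for called genes elsewhere, up to 8, and for the 3 smallest p where none was called. Further genes named for their place in a list or complex were chosen after their values were seen.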

Additional observations from a re-analysis of the deposited data

Results flagged for a closer look

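Of 324 groups of 4, 6 or 7 libraries tested (27 measures), 23 had a lowest or highest library that stood apart from the rest, which is 7.1%, where chance flags about 5%. Values are log2 CPM. In PND1 saline these were Ccne2 at 3.59, Nusap1 at 4.1 and Gmnn at 1.10 in code F replicate 7, and Kif23 at 2.99 in code M replicate 9, where the others ran from 3.44 to 3.75. In PND1 morphine they were E2f1 at 2.73 (others 3.15 to 3.33) and Ccna2 at 4.51 in code M replicate 7, Prc1 at 3.61 in code M replicate 5, Kif23 at 3.30 in code F replicate 4 and Ccnd1 at 4.51 in code F replicate 1. In PND14 saline they were the mean of the 42 genes at 2.84 (others 2.56 to 2.64) and Mki67 at 3.99 in code M replicate 2, Tyms at 1.82 in code M replicate 1 and Bub1 at 0.217 in code M replicate 7. In PND14 morphine they were Foxm1 at 1.16 (others 2.30 to 2.82), Prc1 at 1.60 and Mcm4 at 3.06 in code F replicate 4, the library of lowest depth in its window with 4407544 counts, Cdca8 at 2.42 in code F replicate 6 and Nusap1 at 2.18 in code M replicate 3. In 3-Tri saline they were Cenpe at 3.23 (others 2.33 to 2.64), Ccnd2 at 7.19, Ccnd1 at 5.94 and Gmnn at 2.84 in code M replicate 1, the library of lowest depth in its window with 3113919 counts, and Plk1 at 1.89 in code F replicate 5. The part of depth in these values was not tested.

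The effect of morphine differed between windows in 4 edgeR tests, none of which held with the ID number as a random effect in limma, without the count filter, without the libraries against their code, or with the GC content and length correction. Plk1 differed by 0.36 and Mcm5 by 0.27 between PND14 and PND1, and Cdc20 by 0.39 and Plk1 by 0.37 between 3-Tri and PND1.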

How the results depend on the processing

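The saline and morphine changes with age kept between 40 and 42 genes called in every alternative run. Of 461 alternative counts 375 stayed within 1.5 times the main count and 86 moved, and of 2157 alternative values of single genes 1949 kept their side of the threshold, 207 crossed it and 1 changed sign (Mcm5, saline, 3-Tri minus PND14, which ranged from -0.0178 to 0.27 when ID numbers were left out). For morphine at PND1 over both codes (4 called) there were 1 without the count filter, 2 without the libraries whose sex-linked genes went against the code, 0 with the GC content and length correction and 1 with the hindbrain level as a covariate, and leaving out single libraries gave 1 to 5. For code M (2 called) these were 1 without the filter, 0 with the correction and 1 with the hindbrain level, with 1 to 3 when libraries were left out. For code F against code M at PND1 (5 called) there were 3 without the filter, 8 by DESeq2, 0 with the correction, 0 with the hindbrain and 1 with the cerebellar level, and 0 to 14 when libraries were left out. For the difference of PND14 and PND1 (2 called), and for that of 3-Tri and PND1 (2 called), there was 1 with DESeq2 size factors, and 0 without the filter, without the libraries against their code, with the correction, and with the ID number as a random effect in limma. Leaving out ID numbers gave 0 to 4 and 0 to 2. Morphine 3-Tri against PND14 (0 called) had 1 with the correction. The cause was not tested. The share of all genes that passed in each alternative is not given, so these counts cannot show whether a move was particular to the 42 genes. The marker levels as covariates were chosen after seeing the data.

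Same-numbered replicates did not pair: over 31 pairs the correlation of their deviations ran from -0.22 to 0.21, with 5 above 0.1, and 6 correlated best with their own number. With the replicate block 9 genes passed for morphine at PND1 over both codes, and 1 for the difference of PND14 and PND1. With the block and the GC content and length correction 0 passed for code M at PND1 and 0 for both differences between windows. The block could not be fitted for code F against code M.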
